A study of Homo sapiens with 24 samples.

Results

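The miRNAs of the pluripotency clusters miR-302 (with miR-367) and miR-371 (with miR-372 and miR-373), 10 mature miRNAs of 2656 in the deposited table, were measured by small RNA sequencing (miR-seq) of OV90 cells, an established epithelial ovarian cancer (EOC) line. The 10 were taken by name, 7 of them from the miR-302 cluster and the other 3 from the miR-371 cluster. They are hsa-miR-302a-3p, hsa-miR-302a-5p, hsa-miR-302b-3p, hsa-miR-302b-5p, hsa-miR-302c-3p, hsa-miR-302d-3p, hsa-miR-367-3p, hsa-miR-371a-5p, hsa-miR-372-3p and hsa-miR-373-3p, written without the species prefix from here on. The list was drawn up with earlier results of these data known, in which miR-302d-3p and miR-302b-3p stood high in spheroids after RELA or RELB knockdown. Spheroid knockdown and spheroid shNeg values thereby entered the choice, so every comparison of members that holds a spheroid library is given as a description, with no p-value for any member. Counts of calls in those comparisons stand beside the share of all miRNAs called, and nothing is read from them. The list includes miR-302b-5p and miR-367-3p, which had next to no counts, and omits miR-302c-5p, which was detected and is described beside the members.

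The 24 libraries formed 6 groups of 4. OV90 cells carried an inducible shRNA that was a negative control (shNeg, entered as wild type in the genotype labels), an shRNA against RELA (shRELA) or an shRNA against RELB (shRELB). RELA and RELB are the NF-κB transcription factors of the canonical and the alternative pathway. Each line was grown adherently in medium with serum, or as spheroids on low-attachment plastic in serum-free medium with EGF and FGF, a condition that enriches for tumor-initiating cells (TICs). All 6 groups, the controls included, received 1 µg/ml doxycycline for 72 h. The study aimed to learn how silencing either factor alters miRNA expression in each culture. All groups derive from 1 cell line, the knockdown cannot be read from miRNA counts, and culture form and medium differ together and cannot be told apart. No source states that replicates came from separate cultures, so p-values measure the spread between these libraries, which may be technical.

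The miR-302 cluster is transcribed as 1 non-coding RNA and is known as the leading miRNA product of human embryonic stem cells, where OCT4 and SOX2 occupy its promoter. The miR-371 cluster is its counterpart on chromosome 19 and is likewise known from embryonic stem cells and germ cell tumors. Most members carry the same seed, the bases with which a miRNA pairs to its targets, and miRNAs with this seed are known to act on cell cycle inhibitors and on TGF-β receptor signaling. Both clusters are silent or weak in most adult tissues.

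Of the 10 members, 6 shared the seed AAGUGCU at bases 2 to 8. Their mature sequences, as RefSeq gives them, are shown because the 4 miR-302 arms among them can be told apart only by their last bases, with the seed in capitals.
miR-302a-3p: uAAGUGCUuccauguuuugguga
miR-302b-3p: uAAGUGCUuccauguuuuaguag
miR-302c-3p: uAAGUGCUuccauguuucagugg
miR-302d-3p: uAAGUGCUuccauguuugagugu
miR-372-3p: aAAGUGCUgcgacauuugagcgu
miR-373-3p: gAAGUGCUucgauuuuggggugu
The 4 miR-302 3p arms were identical over their first 17 bases and differed from each other at 2 to 3 positions of the 23. Each member's mature sequence matched 1 position of the primary GRCh38 chromosomes. The processing of reads that fit more than 1 arm is not given in the sources used here. All values of the members were whole numbers.

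The other members had seeds of their own. They are shown because the most abundant member, miR-302a-5p, is the opposite arm of the miR-302a hairpin and carries another seed than the 3p arms, again in capitals.
miR-302a-5p: aCUUAAACguggauguacuugcu
miR-302b-5p: aCUUUAACauggaagugcuuuc
miR-367-3p: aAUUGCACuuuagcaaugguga
miR-371a-5p: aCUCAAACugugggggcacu
The seed of miR-367-3p, AUUGCAC, was also that of miR-25-3p, miR-32-5p, miR-92a-3p, miR-92b-3p and miR-363-3p. No other miRNA of the table with a RefSeq sequence had the seed of miR-302a-5p or of miR-371a-5p.

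The miR-302 cluster hairpins lie within 684 bases of chromosome 4 (chr4:112647874-112648557, minus strand, GRCh38.p14), in the order MIR302B, MIR302C, MIR302A, MIR302D and MIR367 along the transcript. All 5 are in an exon of the non-coding host gene MIR302CHG and, on the other strand, in an intron of LARP7. The miR-371 cluster hairpins lie within 1099 bases of chromosome 19 (chr19:53787675-53788773, plus strand). There MIR371A and MIR372 are in an intron and MIR373 in an exon of an unnamed non-coding gene (ENSG00000269564), and an exon of another (ENSG00000269877) covers MIR371A and MIR372 on the other strand. The hairpin of MIR302A (chr4:112648183-112648251, minus strand) is shown since the arm ratio rests on it, with the 5p arm and then the 3p arm in capitals.
MIR302A: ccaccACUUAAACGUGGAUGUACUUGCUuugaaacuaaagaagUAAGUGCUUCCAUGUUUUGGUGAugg

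The total count was 3797185 to 8283558 in the adherent and 959146 to 3580939 in the spheroid libraries. Levels are given as CPM, the count as a share of the library's total on a common scale, corrected by TMM, a method that allows for differences in library composition. Where a library had 0 counts the limit is 3 counts, worth 0.496 to 0.802 CPM in adherent and 0.86 to 2.29 CPM in spheroid libraries, for counting error only. Spheroid shNeg replicate 1 stood apart, with 432 miRNAs detected against up to 887 in its group, and spheroid control values are also given without it where members are compared. All 7 epithelial marker miRNAs were detected in the series, and their summed level was 2486 to 16340 CPM per library. The summed levels of the other marker lists were 7.63 to 50.9 CPM for 6 blood cell, 113 to 523.7 CPM for 6 fibroblast or smooth muscle, 0 to 8.40 CPM for 3 striated muscle and 268 to 1486 CPM for 3 neural miRNAs. miR-122-5p, a liver marker, was at 13730 to 29400 CPM in every group, and its source was not tested.

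A single member, miR-302a-5p, held most of the counts. Over the 24 libraries it had 26005 counts, against 1858 for miR-302b-3p, 1041 for miR-302d-3p and 874 for miR-302a-3p. The remaining totals were 166 for miR-373-3p, 115 for miR-302c-3p, 71 for miR-371a-5p, 12 for miR-372-3p and 1 for miR-302b-5p. miR-367-3p had 0 counts in all 24 libraries. miR-302a-5p made up 75.4% ± 6.74 (SD, n = 4) of the miR-302 cluster counts in adherent shNeg libraries and 92.02% ± 2.34 in spheroid shRELB libraries. By mean CPM it ranked 210 of 2656 miRNAs in adherent shNeg and 59 in spheroid shRELB cells.

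miR-302a-5p was lowest in adherent shNeg cells and highest in spheroid shRELB cells. Its counts in adherent replicates 1 to 4 were 301, 136, 286 and 247 with shNeg, 752, 389, 313 and 594 with shRELA, and 1892, 1794, 1669 and 1275 with shRELB. In spheroids they were 125, 125, 134 and 78 with shNeg, 342, 352, 386 and 535 with shRELA, and 2646, 4061, 3218 and 4355 with shRELB. In ascending order, the levels were 44.9 ± 6.86 CPM (SD, n = 4) in adherent shNeg, 77.7 ± 19.3 in spheroid shNeg, 89.1 ± 28.3 in adherent shRELA, 180 ± 18.3 in spheroid shRELA, 320 ± 72.0 in adherent shRELB and 1373 ± 103 in spheroid shRELB cells. Spheroid shNeg and adherent shRELA overlapped, and the other neighbours in this order did not.

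The miR-302 3p arms had another order, with spheroid shNeg at the bottom. miR-302b-3p, the most abundant of them, had 47, 42, 26 and 30 counts in adherent shNeg, 95, 35, 50 and 108 in adherent shRELA and 163, 147, 241 and 149 in adherent shRELB replicates. Its spheroid counts were 1, 5, 7 and 0 with shNeg, 15, 22, 22 and 26 with shRELA and 120, 177, 190 and 140 with shRELB. Within each culture the shRELB libraries lay above all shNeg and shRELA libraries in counts and in CPM.

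miR-302d-3p had 18, 21, 21 and 23 counts in adherent shNeg, 46, 29, 32 and 67 in adherent shRELA and 104, 93, 130 and 99 in adherent shRELB replicates. In spheroids it had 0, 0, 1 and 1 counts with shNeg, 16, 8, 14 and 16 with shRELA and 37, 69, 109 and 87 with shRELB. No spheroid shNeg library was above the limit of 3 counts.

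miR-302a-3p, from the same hairpin as miR-302a-5p, had 16, 6, 14 and 26 counts in adherent shNeg, 34, 23, 29 and 48 in adherent shRELA and 95, 80, 131 and 69 in adherent shRELB replicates. Its spheroid counts were 0, 0, 1 and 2 with shNeg, 4, 5, 8 and 23 with shRELA and 33, 88, 97 and 42 with shRELB. The groups of each culture had the same order as for miR-302b-3p and miR-302d-3p.

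miR-302c-3p was near the limit of detection outside the shRELB groups. It had 3, 0, 1 and 4 counts in adherent shNeg, 3, 1, 5 and 2 in adherent shRELA and 16, 6, 22 and 11 in adherent shRELB replicates. In spheroids it had 0 counts in all 4 shNeg libraries, 2, 1, 2 and 1 with shRELA and 5, 2, 16 and 12 with shRELB.

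Summed, the 4 miR-302 3p members were at 2.82 ± 1.74 CPM (SD, n = 4) in spheroid shNeg, 14.4 ± 3.04 in adherent shNeg, 20.5 ± 3.34 in spheroid shRELA, 26.4 ± 8.89 in adherent shRELA, 73.9 ± 12.03 in adherent shRELB and 122 ± 48.4 in spheroid shRELB cells. In that order, spheroid and adherent shRELA overlapped, as did the shRELB groups of both cultures, and adherent shNeg with spheroid shRELA.

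**Figure D1:**
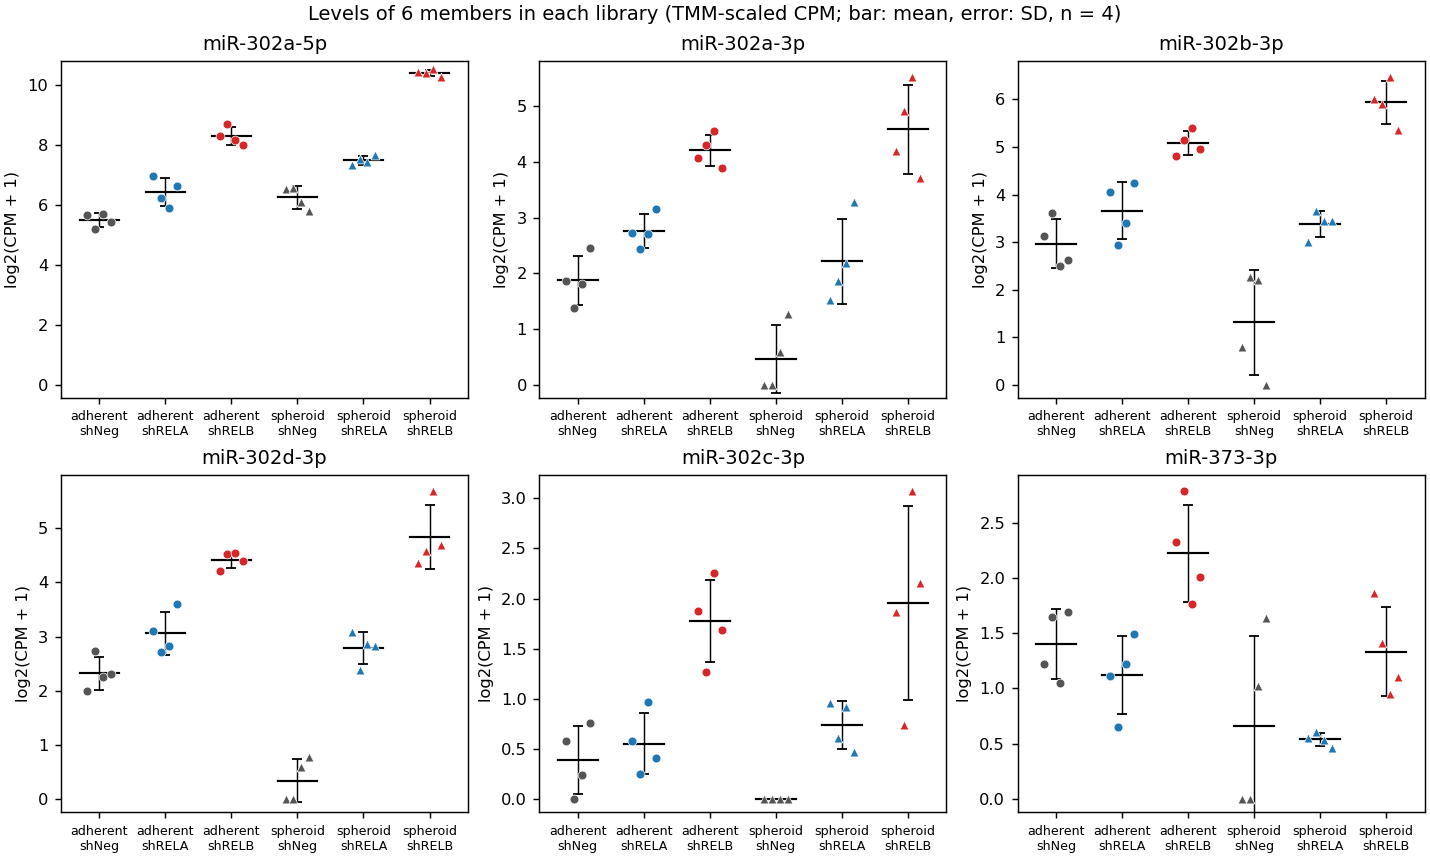
Level of 6 members in each library as log2(CPM + 1) on the vertical axis, by group on the horizontal axis, with adherent libraries as circles, spheroid libraries as triangles, the group mean as a bar and the SD as the error bar. The shRELB groups had the highest mean of each culture for the miR-302 members, and miR-302a-3p, miR-302b-3p, miR-302c-3p and miR-302d-3p had 0 to 7 counts in spheroid shNeg libraries while miR-302a-5p was at 54.7 to 95.5 CPM there.

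The miR-371 cluster members had few counts. miR-373-3p, which carries the shared seed, had 8, 8, 6 and 13 counts in adherent shNeg, 7, 3, 7 and 11 in adherent shRELA and 24, 25, 14 and 15 in adherent shRELB replicates, and at most 5 in any spheroid library. miR-371a-5p had 1 to 11 counts in adherent shNeg, 0 to 4 in adherent shRELA, 3 to 9 in adherent shRELB and at most 6 in any spheroid library. miR-372-3p did not exceed 3 counts in adherent cells and was at 0 in all 12 spheroid libraries. The summed level of the 3 was 2.93 ± 0.473 CPM in adherent shNeg, 1.52 ± 0.679 in adherent shRELA and 5.21 ± 1.68 in adherent shRELB cells (SD, n = 4).

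Of the 10 members, 7 were among the 905 miRNAs tested, those that reached 1 CPM in 4 or more libraries. miR-302b-5p, miR-367-3p and miR-372-3p did not pass. miR-302a-5p, miR-302a-3p, miR-302b-3p and miR-302d-3p reached 1 CPM in all 4 adherent shNeg libraries, whereas miR-302c-3p reached it in 0 adherent shNeg or shRELA libraries and all 4 adherent shRELB libraries. miR-302c-3p thus passed only through the groups where it was high, so it is given by its counts, with no fold or FDR. Log2 fold changes are given ± their standard error. A miRNA was called when edgeR's quasi-likelihood test gave an FDR under 0.01 over all miRNAs tested with a change of more than 2-fold either way. The knockdowns of a culture were compared with the same 4 shNeg libraries, so their comparisons are not independent.

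With RELB knockdown in adherent cells, all 4 well-covered miR-302 arms were higher. miR-302a-5p rose from 44.9 ± 6.86 to 320 ± 72.0 CPM (SD, n = 4), with a log2 fold change of 2.83 ± 0.23 (FDR 1.08e-11 by edgeR's quasi-likelihood test). miR-302a-3p rose from 2.80 ± 1.2 to 17.8 ± 3.72 CPM (log2 fold change 2.62 ± 0.44, FDR 2.77e-05). miR-302b-3p rose from 7.20 ± 3.02 to 33.3 ± 6.12 CPM (log2 fold change 2.22 ± 0.37, FDR 2.74e-05), and miR-302d-3p from 4.07 ± 1.11 to 20.4 ± 2.22 CPM (log2 fold change 2.33 ± 0.35, FDR 6.13e-06). The adherent shNeg and shRELB groups did not overlap for any of the 4, nor for miR-373-3p. The share of all miRNAs whose groups did not overlap is not given, so nothing is read from overlap in any comparison.

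miR-373-3p had 3.83 ± 1.52 CPM with shRELB and 1.69 ± 0.581 with shNeg (log2 fold change 1.17 ± 0.55, FDR 0.176 by edgeR's quasi-likelihood test) and was not called. miR-371a-5p, with too few counts for a fold, was not called. Of the 905 miRNAs, 3.65% were called higher and 3.54% lower, and the median log2 fold change of all was 0.05. The 4 members called higher were called in each of the 8 fits that left out 1 library, and all but miR-302a-3p, which was not tested there, when the test was limited to miRNAs averaging 10 CPM or more. No member was called lower with edgeR, DESeq2 or limma, and 0 were lower at an unadjusted p under 0.05.

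miR-302c-5p, the other arm of the miR-302c hairpin and no member, had the same order. It had 1, 2, 4 and 3 counts in adherent shNeg, 7, 4, 4 and 3 in adherent shRELA and 22, 13, 32 and 17 in adherent shRELB replicates. At 3.06 to 5.48 CPM, its shRELB libraries did not overlap those with shNeg, at 0.166 to 0.713 CPM, or shRELA, at 0.496 to 1.16 CPM. It was near the limit in both, so no fold is given. Of 10 other arms of these hairpins, miR-302e and miR-302f included, it was the only one tested, and 3 had any count.

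With RELA knockdown in adherent cells, no member was called. miR-302a-5p was at 89.1 ± 28.3 CPM against 44.9 ± 6.86 with shNeg (SD, n = 4), with groups that did not overlap, and its log2 fold change, 0.99 ± 0.21 (FDR 0.00186 by edgeR's quasi-likelihood test), was short of the fold threshold. Its values without 1 library ran from 0.69 without shRELA replicate 1, the highest of its group, where the FDR was 0.0533, to 1.15 without shRELA replicate 3. It was called without shNeg replicate 1 or 3 or shRELA replicate 2 or 3, and with DESeq2 or median-ratio size factors. miR-302a-3p, miR-302b-3p and miR-302d-3p had log2 fold changes of 1.03, 0.81 and 0.91 (standard errors 0.44, 0.37 and 0.35), with FDRs of 0.182, 0.221 and 0.121, and groups that overlapped. The members called higher numbered 0 in edgeR's quasi-likelihood test and with limma and 1 with DESeq2, and 4 were higher at an unadjusted p under 0.05. The share of all miRNAs at that p is not given, so nothing is read from the 4. Members called lower numbered 0 with all 3 tools and at an unadjusted p under 0.05. Of all miRNAs tested, 1.1% were called higher and 2.65% lower.

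Set directly against RELA knockdown, RELB knockdown gave higher levels of the same 4 arms in adherent cells. The log2 fold changes were 1.84 ± 0.22 for miR-302a-5p (FDR 5.63e-08), 1.59 ± 0.41 for miR-302a-3p (FDR 0.0044), 1.41 ± 0.35 for miR-302b-3p (FDR 0.00344) and 1.42 ± 0.33 for miR-302d-3p (FDR 0.00185) in edgeR's quasi-likelihood test. The shRELA and shRELB groups did not overlap for these 4 or for miR-373-3p, which was not called (log2 fold change 1.61 ± 0.56, FDR 0.0322). Of all miRNAs tested, 6.63% were called higher and 4.31% lower, with no member among the latter in edgeR, DESeq2 or limma and 0 at an unadjusted p under 0.05.

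Only the miR-302a-5p call was kept whichever library was left out. Without shRELA replicate 2 it was the 1 member called, and the FDRs of miR-302a-3p, miR-302b-3p and miR-302d-3p were then 0.0198, 0.0208 and 0.0111. miR-302a-3p and miR-302b-3p were also lost without shRELA replicate 3 (FDR 0.0122 and 0.013), shRELB replicate 2 (0.0125 and 0.0104) or shRELB replicate 3 (0.0191 and 0.0153) and with limma (0.0119 and 0.0135), and miR-302a-3p without shRELA replicate 1 (0.0109).

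**Figure D2:**
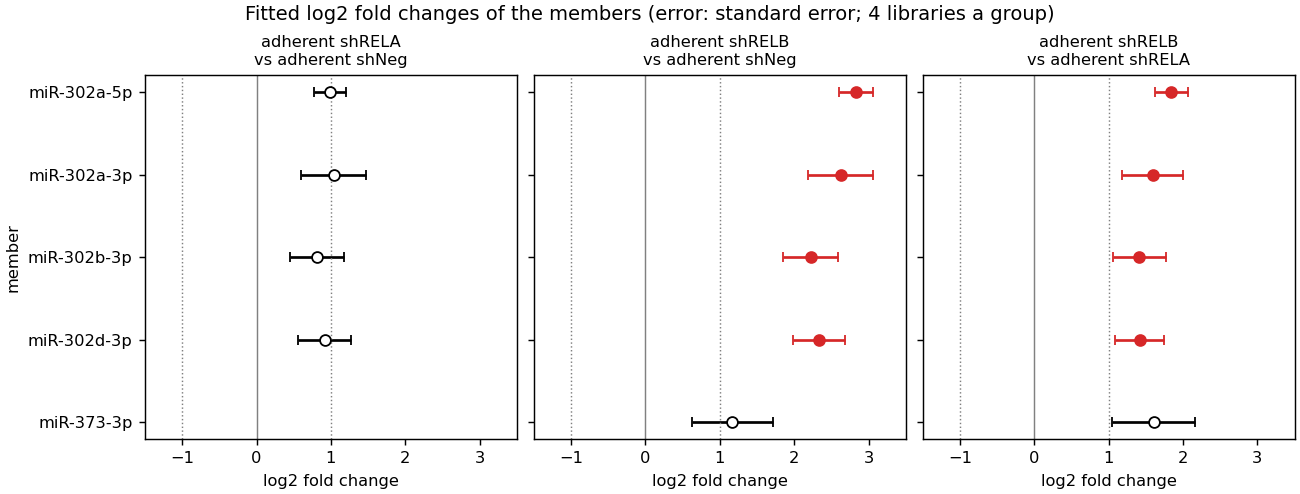
Fitted log2 fold change of 5 members on the horizontal axis in the 3 adherent comparisons, with standard errors, filled red where called, and dotted lines at a 2-fold change. miR-373-3p is left out where its counts were too few, and the 4 red points of the RELB comparison with shNeg lie between 2.22 and 2.83.

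Marker miRNAs of several cell types also differed between the adherent groups, by edgeR's quasi-likelihood test. With RELA knockdown, 1.1% of all miRNAs tested were called higher and 2.65% lower, and with RELB knockdown 3.65% and 3.54%. Between the knockdowns, 6.63% were called higher and 4.31% lower with RELB than with RELA knockdown. The fibroblast or smooth muscle list was at 406 to 480 CPM with shNeg, 113 to 191 CPM with shRELA and 471 to 523.7 CPM with shRELB. Of its 6 miRNAs, 2 were called lower with RELA knockdown and 4 higher with RELB than with RELA knockdown. Among the 4 were miR-199a-3p and miR-199b-3p, which had identical means and SDs in every group and cannot be told apart. Both enter the counts and sums of this list. With RELB knockdown 0 were called by edgeR, 1 by DESeq2 and 0 by limma, and 4 were higher at an unadjusted p under 0.05. The share of all miRNAs at that p is not given, so nothing is read from that last count.

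The epithelial list was at 4863 to 5070 CPM with shNeg, 2486 to 3449 CPM with shRELA and 7800 to 9639 CPM with shRELB. Of its 7 miRNAs, 1 was called lower with RELA knockdown, 1 higher and 1 lower with RELB knockdown, and 4 higher with RELB than with RELA knockdown. With RELB knockdown miR-200c-3p went from 3166 ± 63.7 to 7931 ± 823 CPM (SD, n = 4, log2 fold change 1.33, FDR 6.82e-06), and miR-205-5p had a log2 fold change of −1.27 (FDR 2.11e-06, both by edgeR). Of 4 blood cell miRNAs tested, 2 were called lower with RELB knockdown and 1 lower with RELB than with RELA knockdown, and the list was at 9.42 to 15.1 CPM with shRELB and 16.0 to 19.2 CPM with shNeg. Of 3 neural miRNAs, 1 was called lower with RELB knockdown, and against RELA knockdown 1 was higher and 1 lower. In bulk RNA, a change in the number of cells that express a miRNA and a change in its level per cell cannot be told apart. The part of these markers in the members' values was not tested.

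In control cells, the levels of miR-302b-3p and miR-302d-3p were lower in spheroids and that of miR-302a-5p was higher, as a description, since low spheroid shNeg values of the former entered the choice of members. miR-302a-5p was at 77.7 ± 19.3 CPM in spheroid and 44.9 ± 6.86 CPM in adherent shNeg cells (SD, n = 4), with no overlap and a log2 fold change of 0.78 ± 0.22. Without spheroid shNeg replicate 1 its level was 73.0 ± 20.7 CPM (n = 3) and the log2 fold change 0.69. miR-302b-3p was at 2.04 ± 1.95 against 7.20 ± 3.02 CPM, with no overlap (log2 fold change −1.73 ± 0.52, or −1.46 without that replicate). The spheroid libraries of miR-302d-3p had at most 1 count each and those of miR-302a-3p at most 2, so they are given as at least 2.002-fold and 1.38-fold lower.

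Of the members, 0 were called higher by edgeR's quasi-likelihood test, DESeq2 and limma. By edgeR 2, miR-302b-3p and miR-302d-3p, were called lower. Of all miRNAs tested, 21.3% were called higher and 20.8% lower. The median of all log2 fold changes was −0.25 here and moved to −0.14 with median-ratio size factors and to 0.18 with library totals. Between these groups, the neural marker list was at 268 to 382 CPM in spheroid and 1019 to 1181 CPM in adherent libraries, and the fibroblast or smooth muscle list at 163 to 258 CPM and 406 to 480 CPM. Their part in the members' values was not tested. Calls of members between these groups are a description, and nothing is read from how often they held. That of miR-302d-3p remained without any 1 library. For miR-302b-3p the call did not hold when spheroid shNeg replicate 1, spheroid shNeg replicate 4 or adherent shNeg replicate 1 was left out (log2 fold changes −1.46, −1.51 and −1.69), with library totals (−1.31), when limited to miRNAs averaging 10 CPM or more (−1.36) and with only the groups compared (−1.49). miR-302a-5p was called higher in those same 3 fits (1.22, 1.17 and 1.05). miR-302a-3p, just short of the threshold, was called lower with limma, with no filter, with the replicate block and without adherent shNeg replicate 2 or spheroid shNeg replicate 4.

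The arm ratio of the miR-302a hairpin does not depend on library scaling. In adherent cells, log2 of miR-302a-5p over miR-302a-3p, with 0.5 counts added to each, was 4.03 ± 0.54 with shNeg, 3.88 ± 0.46 with shRELA and 4.16 ± 0.35 with shRELB (SD, n = 4). The 3 adherent comparisons, of a ratio chosen after values were seen, had exact permutation p of 0.771, 0.629 and 0.286 with overlapping groups. In spheroid shNeg libraries miR-302a-3p had 0, 0, 1 and 2 counts, so the ratio is given, as a description, with the 3p arm set at 3 counts. That limit is for 0 counts, so it is a lower bound for replicates 1 and 2 only. The values were 5.38, 5.38, 5.48 and 4.70 for replicates 1 to 4. As set, each was above the adherent shNeg libraries at 3.25 to 4.50 with no count added, with and without replicate 1. For replicates 3 and 4 counting error could place the ratio lower.

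Summed over libraries, the miR-302a-3p arm had 62 counts beside 970 of the 5p arm in adherent shNeg and 3 beside 462 in spheroid shNeg cells, or 6.01% and 0.645% of both arms. It was 6.14% and 5.35% in adherent shRELA and shRELB cells and, as a description, 2.42% and 1.79% in their spheroids. The log2 ratio in spheroids was 5.57 ± 0.77 with shRELA and 5.89 ± 0.74 with shRELB.

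**Figure D3:**
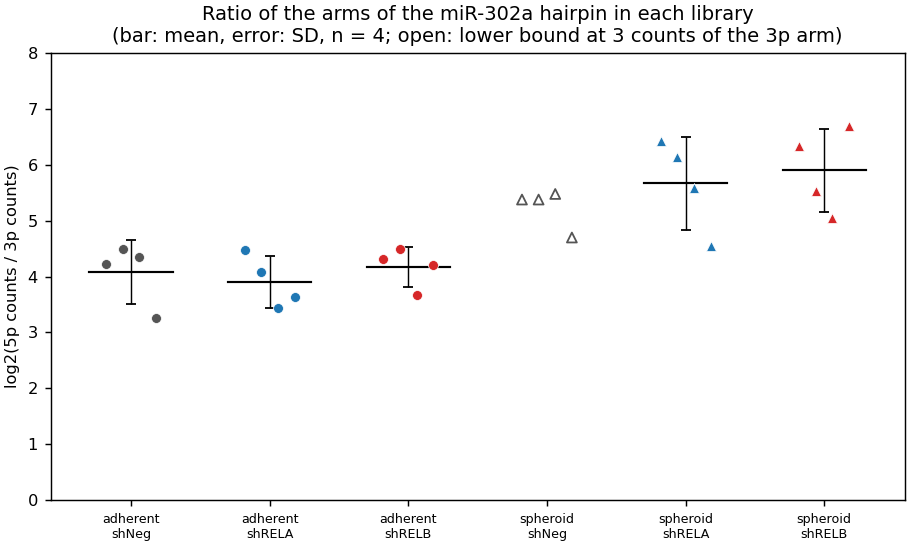
Log2 ratio of miR-302a-5p to miR-302a-3p counts on the vertical axis, by group on the horizontal axis, with a point per library, the mean as a bar and the SD as the error bar. Open triangles for spheroid shNeg have the 3p arm set at 3 counts and lie at 4.70 to 5.48. They are lower bounds only for the libraries with no count of the 3p arm. The adherent libraries lie between 3.25 and 4.50.

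In spheroids, the comparisons with knockdown libraries are a description, as the members were chosen on them. With RELB knockdown, miR-302a-5p was at 1373 ± 103 against 77.7 ± 19.3 CPM with shNeg (SD, n = 4), a ratio of 17.7, and miR-302b-3p at 62.7 ± 19.9 against 2.04 ± 1.95 CPM, a ratio of 30.8. miR-302a-3p, at 26.0 ± 14.7 CPM, was at least 12.8-fold higher, and miR-302d-3p, at 29.5 ± 14.3 CPM, at least 14.5-fold higher. With RELA knockdown, miR-302a-5p was at 180 ± 18.3 CPM, a ratio of 2.32, and miR-302b-3p at 9.58 ± 1.88 CPM, a ratio of 4.70. miR-302d-3p was at 6.01 ± 1.36 CPM, at least 2.96-fold higher. Neither knockdown group overlapped spheroid shNeg for these arms. Without spheroid shNeg replicate 1, the RELB ratios were 18.8 for miR-302a-5p and 25.4 for miR-302b-3p, with bounds of 13.1 for miR-302a-3p and 14.9 for miR-302d-3p, and the RELA ratios were 2.47 and 3.88, with a bound of 3.04 for miR-302d-3p.

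Of the members, 5 were called higher with RELB knockdown in spheroids, where 7.29% of all miRNAs were called higher and 6.08% lower, and 4 with RELA knockdown, where 7.51% were called higher and 7.73% lower. Nothing is read from these counts, which the choice of members fixed in part. Without spheroid shNeg replicate 1, they were 5 and 3.

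Between knockdowns in spheroids, shRELB stood above shRELA without overlap for miR-302a-5p (ratio 7.61), miR-302a-3p (6.17), miR-302b-3p (6.54) and miR-302d-3p (4.91), and the miR-302c-3p groups overlapped. Between cultures within shRELB, miR-302a-5p was 4.29 times higher in spheroids without overlap, while the ratios of miR-302a-3p, miR-302b-3p and miR-302d-3p were 1.46, 1.88 and 1.45 with overlap. Within shRELA, miR-302a-5p was 2.02 times higher in spheroids without overlap, and miR-302a-3p, miR-302b-3p and miR-302d-3p were at 0.717, 0.770 and 0.793 of their adherent levels with overlap. In every pair of groups the 3p arms thus had a lower spheroid-to-adherent ratio than miR-302a-5p, which was not tested.

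Across the 24 libraries, Pearson correlations of log2(CPM + 1) were 0.947 between miR-302a-3p and miR-302d-3p, 0.926 between miR-302b-3p and miR-302d-3p and 0.888 between miR-302a-3p and miR-302b-3p. Those of miR-302c-3p with these 3 were 0.795 to 0.83, and those of miR-373-3p with the miR-302 3p arms 0.39 to 0.574. Those of miR-302a-5p with these 3 were 0.761, 0.743 and 0.802 for miR-302a-3p, miR-302d-3p and miR-302b-3p. miR-371a-5p had correlations of −0.163 to 0.284 with the other 6 members tested. These values describe libraries that share 6 groups and their depth, and no p is given.

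The members of the miR-302 cluster share 1 transcript, so the promoter of MIR302CHG is shown, with the octamer ATGCAAAT in capitals, the motif of POU factors such as OCT4. RefSeq places this start in chr4:112650002-112650301 (minus strand, GRCh38.p14, 250 bases before to 50 after the start).
MIR302CHG: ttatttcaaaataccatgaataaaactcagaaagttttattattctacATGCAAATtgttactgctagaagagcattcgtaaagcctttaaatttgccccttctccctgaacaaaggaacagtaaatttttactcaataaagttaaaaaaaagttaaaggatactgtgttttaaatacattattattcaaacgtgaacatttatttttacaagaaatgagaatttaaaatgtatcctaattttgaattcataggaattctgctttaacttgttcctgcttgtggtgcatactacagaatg
The octamer was searched on both strands and begins 202 bases before the start. It is present in 1.77% of 35116 RefSeq promoters of this length. The κB consensus, also searched on both strands, is present in 11.3% of those promoters and these letters are not in this window. A second MIR302CHG start, with the window chr4:112648654-112648953, held neither motif. Binding was not measured.

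The miRNAs most alike to the summed miR-302 cluster members were sought among 332 miRNAs outside the list that averaged 10 CPM or more, by Pearson correlation over the 24 libraries. They were miR-200c-3p (r = 0.881), an epithelial miRNA that represses ZEB factors, miR-4804-5p (0.842), miR-629-5p (0.825), miR-503-3p (0.82) and miR-664a-5p (0.783). miR-200c-3p was at 3166 ± 63.7 CPM in adherent shNeg, 2299 ± 355 in adherent shRELA and 7931 ± 823 in adherent shRELB cells. In spheroids it was at 2034 ± 319 CPM with shNeg, 5551 ± 1510 with shRELA and 11730 ± 3471 with shRELB (SD, n = 4). Unlike that of miR-302a-5p, its mean was lower in adherent shRELA than in adherent shNeg cells. The spheroid knockdown values that chose the members enter this measure, and shared groups carry much of it.

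**Figure D4:**
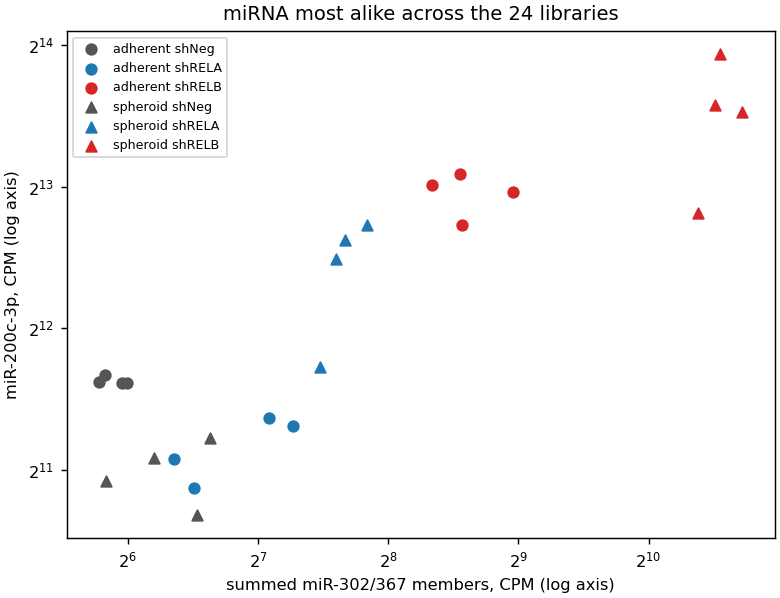
Level of miR-200c-3p on the vertical axis against the summed miR-302 cluster members on the horizontal axis, both in CPM on log axes, with a point for each of the 24 libraries. Spheroid shRELB libraries lie highest on the horizontal axis, at 1330 to 1688 CPM, and the shNeg libraries of both cultures lie at 54.8 to 99.3 CPM, where adherent shRELA libraries begin at 81.7 CPM.

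Other miRNAs with the seed of the 3p members were next to absent. Of 6 in the table, 4 had a count, none more than 4 in a library, and 0 could be tested. The chromosome 19 miRNA cluster (C19MC), known from placenta and beside the miR-371 cluster, had a count for 54 of 66 miRNAs, none over 19 counts in a library, and its summed level was 3.24 to 68.0 CPM. Of its 12 tested miRNAs, 0 were called in the 4 tested comparisons by edgeR or limma and 1 by DESeq2, as higher with RELB than with RELA knockdown in adherent cells. At an unadjusted p under 0.05, 8 were lower with RELA knockdown, 0 differed with RELB knockdown, 8 were higher in that DESeq2 comparison and 6 were higher in spheroid than in adherent shNeg cells. Its most abundant entries, miR-519c-5p, miR-519b-5p and miR-523-5p, hold identical values in every library and cannot be told apart. All 3 enter the counts and the sum of this list, which thus hold the same values more than once. The share of all miRNAs at that p is not given, so nothing is read from these counts.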

How the data were processed

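Small RNA libraries of OV90 cells, 24 in 6 groups of 4, were analysed. Adapters were removed by the authors using Cutadapt, and reads were assigned by miRDeep2 to miRBase on GRCh38. The table the authors deposited holds estimated counts per mature miRNA, unscaled, although its name speaks of CPM. A unique molecular index was part of the kit, and whether reads were collapsed by it is not given in the sources used here. Fractional values (3.05% of those above 0, on 84 miRNAs) were rounded. Total counts were 959146 to 8283558 per library.

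miRNAs that reached 1 CPM in 4 or more libraries (905 of 2656) were tested with edgeR 4.0.16 (R 4.3.3), TMM scaling, its quasi-likelihood test and the group as the only term. FDRs were taken by Benjamini-Hochberg over the miRNAs tested, and standard errors from the fold change and the F statistic. Alternatives were DESeq2 1.42.0, limma 3.58.1 on log2(CPM + 1), median-ratio size factors, library totals, other filters, an FDR of 0.05, only the groups compared, the replicate number as a block and each library left out. Leaving spheroid shNeg replicate 1 out of the shared fit was added after seeing the data. The fits were tested on simulated data. Arm ratios were compared by 2-sided exact permutation tests (scipy 1.17.1).

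All 10 members are named. A fold is given where 1 of the groups compared had a median of at least 10 counts, and as a bound at 3 counts per library where a group had at most 3 in each. Up to 3 miRNAs are named of each other list, by mean CPM. The members and lists were chosen with earlier results of these data known. Members in spheroid against adherent shNeg cells were to be tested and are given as a description, because spheroid shNeg values entered that choice. Sequences are from RefSeq on GRCh38.p14, found for all 10 members and 2367 of the 2656 miRNAs, and gene positions from GENCODE.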

Additional observations from a re-analysis of the deposited data

Results flagged for a closer look

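Of 41 sets of 4 libraries examined, 1 held a library far from the others. In spheroid shRELA cells, miR-371a-5p was at 1.52 CPM in replicate 4, from 4 counts, and at 0 in the other 3 libraries. About 1 in 20 sets of normally distributed values is expected to show such a gap by chance. That rate does not apply to this set, since any set with a single library above 0 shows such a gap. The value is also close to the limit of 3 counts.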

How the results depend on the processing

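Among the members with enough counts for a fold, no log2 fold change changed sign under any alternative run. Members called higher with RELA knockdown in adherent cells went from 0 to 1, miR-302a-5p, with median-ratio size factors and with DESeq2, and were 0 to 1 without each library. For RELB against RELA knockdown in adherent cells, the 4 members called higher became 2 with limma and 1 to 4 without each library. Counts of calls in spheroid against adherent shNeg cells are a description. With a mean of at least 10 CPM, library totals or only the groups compared, 1 member was higher there in place of 0. In those fits 1 was lower in place of 2, and leaving out each library gave 1 to 3 lower. In spheroids, where counts of calls are a description, the 4 members called higher with RELA knockdown became 2 with a mean of at least 10 CPM, 1 with library totals and 2 with only the groups compared, and the 5 with RELB knockdown became 3 with a mean of at least 10 CPM. The cause of these changes was not tested. Scaling turned the sign of the median of all miRNAs in some comparisons. Library totals moved the median of all log2 fold changes from 0.02 to 0.24 for RELB against RELA knockdown in adherent cells and from 0.09 to −0.25 for RELA knockdown in spheroids. The labels number replicates 1 to 4 in each group. Same-numbered libraries had correlations of −0.244 to 0.136 over miRNAs, so the numbers were not taken as pairs. With the replicate block, 4 members were called higher with RELB knockdown in adherent cells, as without it, and 3 lower in spheroid against adherent shNeg cells, where miR-302a-3p was added. Depth limits the spheroid values of the 3p arms, as 3 counts are worth up to 2.29 CPM there.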

Other observations

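miRNAs with related seeds had their own values. Most, but not all, of the 7 miRNAs of the miR-17 group have the seed of miR-302a-3p shifted by 1 base. Of the 7, 5 were called lower in spheroid than in adherent shNeg cells by edgeR's quasi-likelihood test. In that comparison 20.8% of all miRNAs tested were called lower. miR-17-5p and miR-20a-5p had log2 fold changes of −2.73 and −2.61 there, and miR-93-5p, the most abundant, −0.09 (FDR 0.666). In adherent cells, 0 of the 7 were called with either knockdown by edgeR, DESeq2 or limma, and at an unadjusted p under 0.05 RELA knockdown had 1 higher and RELB knockdown 1 higher and 2 lower. Against RELA knockdown, RELB knockdown had 1 higher and 2 lower by edgeR and DESeq2 and 0 of either by limma, where edgeR called 6.63% of all miRNAs higher and 4.31% lower.

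Of the 5 miRNAs with the seed of miR-367-3p, miR-92b-3p had a log2 fold change of 2.08 with RELB knockdown in adherent cells (FDR 1.36e-11) and of 2.16 against RELA knockdown (FDR 7.29e-12, both by edgeR), and miR-363-3p, named after its value was seen, had 1.27 against RELA knockdown (FDR 5.47e-04). The other 3 were not called in either. Of the 9 let-7 miRNAs, known for their rise as stem cells differentiate, 2 were called lower by edgeR with RELA and 1 with RELB knockdown in adherent cells, where 2.65% and 3.54% of all miRNAs were. At an unadjusted p under 0.05 by edgeR, 4 were higher and 2 lower with RELA, and 1 higher and 2 lower with RELB knockdown. The share of all miRNAs at that p is not given, so nothing is read from these counts or those of the miR-17 group. The summed let-7 level was 230600 to 253100 CPM in adherent shNeg and 267000 to 339100 CPM in adherent shRELA libraries. In adherent shRELB libraries it was 228700 to 245600 CPM. In spheroid against adherent shNeg cells 1 of the 9 was higher and 4 lower by edgeR, 3 lower by DESeq2, beside 21.3% and 20.8% of all miRNAs. The summed let-7 level was 168000 to 219600 CPM in spheroid shNeg, 375000 to 462400 CPM in spheroid shRELA and 313700 to 348400 CPM in spheroid shRELB libraries. No explanation of these values was tested.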
